A study of Mus musculus with 12 samples.

Results

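The transcripts described here encode the proteins of the mitochondrial ribosome, the particle that translates the few messenger RNAs of the mitochondrial genome. Members were the entries of the count table whose symbol begins with Mrpl or Mrps and a number, with pseudogenes left out, which gave 78 genes of the 49164 entries with counts. By symbol 49 belong to the large subunit (Mrpl) and 29 to the small subunit (Mrps). The rule reads the symbol alone. Of the 78, 77 had enough reads to be tested, 48 of the large and 29 of the small subunit. The gene that was not tested is Mrpl53.

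RNA was sequenced from nephron progenitors of 12 mouse litters at embryonic day E17.5, in 3 maternal arms of 4 litters, and the question of the series is how ketosis of the mother affects fetal kidneys. All embryos were bred by mating wild-type CD1 outbred females with males of the transgenic line Tg(Six2-EGFP/cre), parents being 8 to 10 weeks old, so every arm is heterozygous for Six2 Cre+/tg, and the promoter that drives the green marker is that of Six2, a gene of the self-renewing cap mesenchyme. The kidneys of a whole litter were pooled and dissociated with collagenase and dispase. Marker-positive cells were sorted, and each stranded total RNA library, read once over 100 cycles, came from 50000 to 100000 of them, so that a library is the average of 1 litter, with embryos not separated by sex. From conception on, pregnant females were fed the control diet alone, the control diet with added β-hydroxybutyrate (a ketone body), or a ketogenic diet, by random assignment. Library titles gave the arm names used here: normal, K and BHB. For the treated arms the labels contradict each other: in the treatment field, libraries with a ketogenic title are given the β-hydroxybutyrate supplement, and those with a β-hydroxybutyrate title the ketogenic diet. K and BHB therefore name sets of libraries and not regimens.

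The mammalian mitochondrial ribosome has a large subunit, which forms peptide bonds, and a small subunit, which reads the messenger RNA. It makes the core subunits of the respiratory chain and of ATP synthase that the mitochondrial genome encodes. Its own proteins are all encoded in the nucleus, translated in the cytosol and imported, so their genes must be expressed alongside mitochondrial ribosomal RNA. Many members descend from bacterial ribosomal proteins and keep their numbers, whereas others are found only in mitochondria. Nephron progenitors are known to lean on glycolysis, and their respiratory metabolism increases as they differentiate into nephrons.

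The starts of these genes were searched for short sequences bound by general activators of nuclear genes for mitochondria. These activators are NRF1, the ETS-family factor GABP (also called NRF-2) and YY1. RefSeq windows from 250 bases before to 50 after the transcript start, in build GRCm38.p6, matched 69 of the 78 members by symbol. The ETS letters CCGGAAG, on either strand, stood in windows of 26 of the 69 members (37.7%), against 18.5% of 11458 tested genes with a window and 8.86% of all 32851 windows. The NRF1 core GCATGCGC stood in 8 members (11.6%) against 5.51% of tested genes and 2.71% of all windows, and 7 of those 8 are large-subunit genes. The YY1 letters AAGATGGCG stood in 8 members (11.6%) against 3.24% and 1.4%. These are letter matches and not binding sites. Stretches from 120 bases before to 30 after the start follow for 4 members whose arm values are given later, each in the direction of transcription with matches to these 3 motifs in capitals. Mrpl22 (chr11:58171544-58171693, plus strand) has an ETS match and an NRF1 match, Mrpl32 (chr13:14613008-14613157, minus strand) has 4 NRF1 matches of which 2 overlap as a palindrome, Mrpl3 (chr9:105053148-105053297, plus strand) has an ETS match, and Mrps18a (chr17:46110884-46111033, plus strand) has an ETS match before and a YY1 match after the start.
Mrpl22: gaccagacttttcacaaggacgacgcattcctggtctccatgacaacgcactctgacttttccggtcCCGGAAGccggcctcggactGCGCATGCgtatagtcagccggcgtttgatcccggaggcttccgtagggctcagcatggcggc
Mrpl32: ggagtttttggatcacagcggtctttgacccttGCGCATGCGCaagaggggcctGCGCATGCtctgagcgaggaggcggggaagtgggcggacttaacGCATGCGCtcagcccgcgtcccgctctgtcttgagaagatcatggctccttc
Mrpl3: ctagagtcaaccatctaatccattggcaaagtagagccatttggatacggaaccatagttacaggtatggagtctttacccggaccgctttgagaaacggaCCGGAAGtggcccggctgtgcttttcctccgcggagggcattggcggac
Mrps18a: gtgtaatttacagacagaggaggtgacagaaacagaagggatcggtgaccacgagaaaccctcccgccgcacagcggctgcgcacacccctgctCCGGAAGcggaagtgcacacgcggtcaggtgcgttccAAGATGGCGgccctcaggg

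Other motif letters were not more frequent among members than among tested genes by more than a few percentage points: the CCAAT letters stood in 39.1% of members against 42.9% of tested genes, TATAAA in 7.25% against 9.43%, the E-box CACGTG in 7.25% against 11.4% and the oestrogen-related receptor element AAGGTCA in 5.80% against 3.94%. The members' windows had a median GC content of 58.7%, against 60.3% for windows of tested genes. A further shared feature is the neighbourhood. In the GENCODE M21 annotation 33 of the 77 tested members (42.9%) have another gene on the opposite strand starting within 1000 nucleotides, against 15.1% of 13811 protein-coding genes tested. Mrps11 and Mrpl46, 1 gene of each subunit, lie head to head and overlap at their annotated 5′ ends, Mrps12 starts 172 nucleotides from Sars2, which encodes the mitochondrial seryl-tRNA synthetase, and Mrpl36 lies beside Ndufs6, a complex I subunit gene.

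Total counts ran from 7532784 to 12276119 per library. A group of 4 libraries stood apart from the rest in markers of other cell types. A score over tubule, podocyte, ureteric, endothelial and leukocyte markers (mean log2 CPM, where CPM is the count scaled to library size) ran from 2.29 to 3.4 over the normal litters and from 3.34 to 3.77 over K 1, K 2, BHB 3 and BHB 4. The remaining libraries were higher: K 3 scored 5.30, K 4 scored 5.21, BHB 1 scored 5.01 and BHB 2 scored 4.35. The other treated litters were not free of such markers, as values without these 4 libraries show further below. All 10 endothelial markers passed the filter, and their summed level was 18.2 to 35.3 CPM in normal, 65.5 to 240 CPM in K and 26.6 to 350 CPM in BHB. The 10 proximal tubule markers summed to 164 to 1408 CPM in normal, 402 to 3520 CPM in K and 694 to 1599 CPM in BHB. Progenitor markers, of which 11 of 12 passed the filter, summed to 2462 to 2675 CPM in normal, 1462 to 2554 CPM in K and 1661 to 2560 CPM in BHB, so the labelled cell type was present in every library. In pooled cells, fewer cells of a type and less RNA per cell cannot be told apart.

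Members took a small and even share of the libraries. They held 0.216% ± 0.0084 of all counts in normal (SD, n = 4), 0.219% ± 0.020 in K and 0.218% ± 0.0098 in BHB, against 3.45% ± 0.27, 3.18% ± 0.47 and 3.21% ± 0.27 for the 80 cytosolic ribosomal protein genes. Over large-subunit genes, the mean log2 CPM of normal was 4.69 ± 0.052, that of K 4.69 ± 0.13 and that of BHB 4.64 ± 0.038. For small-subunit genes it was 4.56 ± 0.051, 4.63 ± 0.16 and 4.58 ± 0.042. The widest scatter was in K, where K 3 lay highest of all 12 libraries for both subunits (4.87 and 4.84) and K 2 lowest (4.55 and 4.47). Single members varied little between litters of an arm: the median within-arm SD of log2 CPM was 0.13 for the large and 0.16 for the small subunit, against 0.25 over all 17697 tested genes and 0.26 for the 13 mitochondrially encoded proteins. Related nuclear genes varied as little: 0.14 for mitochondrial aminoacyl-tRNA synthetases and 0.16 for mitoribosome assembly and rRNA modification. In normal, members averaged 4.64 log2 CPM and all tested genes 3.80, and the part of level in these SDs was not tested.

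Although the ribosome holds its proteins in fixed proportion, their transcripts did not have equal levels. Per kilobase of principal transcript, large-subunit genes in normal litters ran from 4.21 to 84.3 CPM with a median of 17.8, and small-subunit genes from 4.42 to 66.5 CPM with a median of 15.4. In the large subunit the highest per length were Mrpl52 (84.3 CPM per kb), Mrpl42 (62.0 CPM per kb), Mrpl12 (49.6 CPM per kb), the stalk protein to which translation factors bind, and Mrpl54 (49.4 CPM per kb). The lowest tested were Mrpl47 (4.21 CPM per kb), a homologue of bacterial L29, Mrpl19 (5.36 CPM per kb), Mrpl35 (5.75 CPM per kb) and Mrpl57 (6.16 CPM per kb). Among small-subunit symbols Mrps21 was highest (66.5 CPM per kb), followed by Mrps15 (43.6 CPM per kb), Mrps9 (41.6 CPM per kb) and Mrps18a (35.0 CPM per kb). By structure Mrps18a belongs to the large subunit, as described below. Lowest of the small-subunit symbols were Mrps16 (4.42 CPM per kb), Mrps25 (6.48 CPM per kb), Mrps18c (7.30 CPM per kb) and Mrps26 (8.44 CPM per kb). In GENCODE M21 another gene overlaps 23.2% of the exon bases of Mrps18c on the same strand. On the opposite strand, genes overlap 69.8% of those of Mrps25, 36% of Mrpl19 and 24.2% of Mrpl47. The part of these overlaps in the levels was not tested. The ranking depends on which transcript is taken as the gene's length: with the union of all annotated exons, Mrpl42 came to 11.2 CPM per kb and Mrps9 to 10.2 CPM per kb, whereas Mrpl12 remained at 42.6 and Mrps21 at 40.2 CPM per kb.

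**Figure D1:**
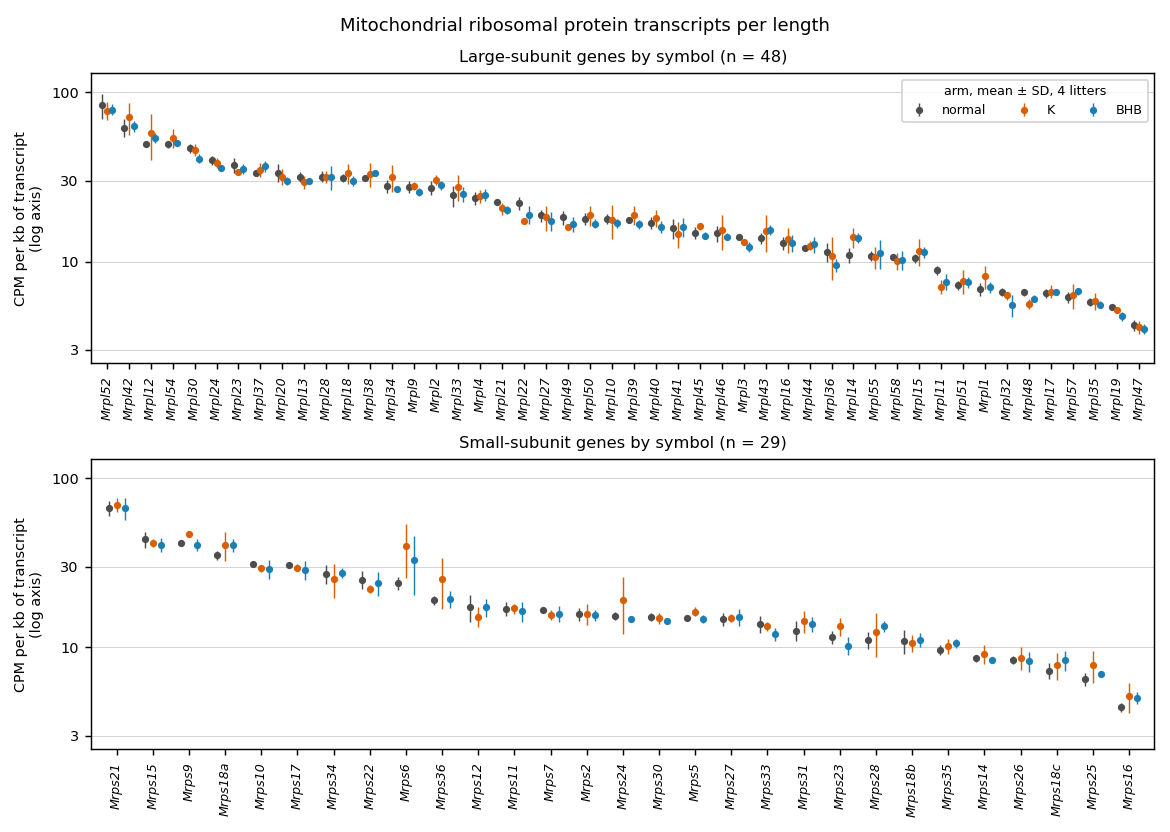
Level of each tested member in CPM per kilobase of principal transcript (log axis), as mean ± SD over the 4 litters of the normal, K and BHB arms, with large-subunit genes above and small-subunit genes below in descending order of the normal mean. The 3 arms lie close together for nearly every gene, the range from Mrpl52 (84.3) to Mrpl47 (4.21) exceeds every arm difference, and Mrps6, Mrps36 and Mrps24 have wide bars in K.

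The large subunit was then set against the small. In each library the mean log2 CPM of the small-subunit genes was subtracted from that of the large-subunit genes. The difference was 0.12, 0.16, 0.13 and 0.10 in normal 1 to 4. It was 0.070, 0.079, 0.029 and 0.055 in K 1 to 4, and 0.063, 0.084, 0.061 and 0.069 in BHB 1 to 4. All 8 treated litters lay below all 4 normal litters, and the treated arms overlapped each other. The arm means were 0.13 ± 0.022 in normal, 0.058 ± 0.022 in K and 0.069 ± 0.010 in BHB (SD, n = 4), so the large subunit stood lower relative to the small by 0.070 on the log2 scale in K and by 0.059 in BHB. This is a description of a summary over members, without a test.

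That separation was kept when genes were placed by the solved structure of the ribosome rather than by symbol. Mrps30 and Mrps18a sit in the large subunit despite their names, and Mrps36 is now known as a subunit of the 2-oxoglutarate dehydrogenase complex and was left out. So placed, the difference ran from 0.15 to 0.21 in normal, from 0.11 to 0.14 in K and from 0.12 to 0.14 in BHB, again with all 8 treated litters below every normal litter. It was not kept when the 3 members of largest within-arm scatter were left out. These are the small-subunit symbols Mrps6, Mrps24 and Mrps36, and without them the normal litters ran from 0.031 to 0.089, the K litters from 0.020 to 0.054 and the BHB litters from -0.018 to 0.042, with 4 of 8 treated litters below every normal litter. The difference of arm means was then 0.031 in K, down from 0.070, and 0.048 in BHB, on the same log2 scale and with the large subunit lower relative to the small in both. With the median over members in place of the mean, 5 of 8 treated litters lay below every normal litter. The ratio of summed counts of large to small members averaged 1.74 ± 0.026 for normal, 1.67 ± 0.0061 for K and 1.69 ± 0.023 for BHB, and 7 of 8 treated litters lay below every normal litter. The same difference for cytosolic ribosomal proteins, 48 Rpl against 32 Rps genes, averaged 0.11 ± 0.0089 for normal, 0.12 ± 0.014 for K and 0.10 ± 0.059 for BHB, and 1 of 8 treated litters lay below every normal litter.

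**Figure D2:**
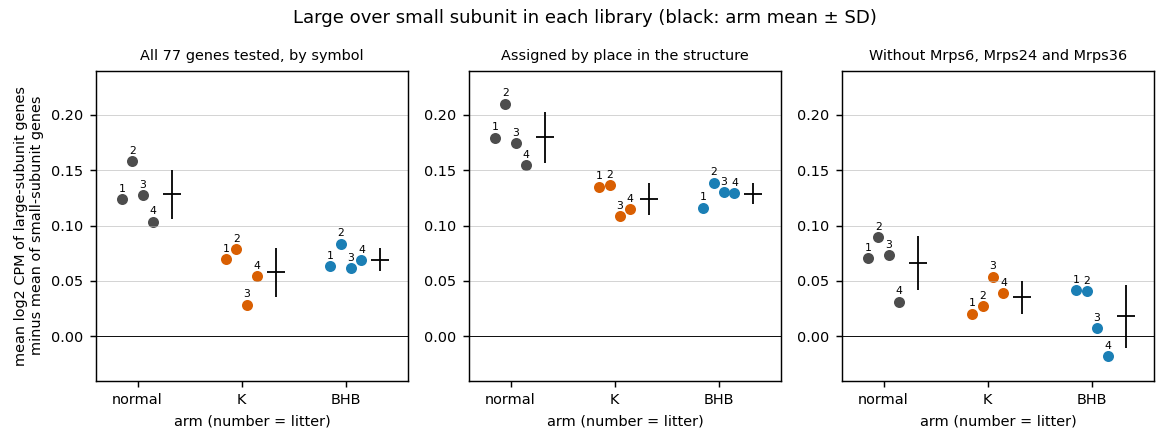
Mean log2 CPM of large-subunit genes minus that of small-subunit genes in each library, with litter numbers above the points and arm means ± SD in black. With all 77 genes by symbol, and with genes placed by structure, all 8 treated litters lie below every normal litter, whereas without Mrps6, Mrps24 and Mrps36 the arms overlap.

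For single members, K was compared with normal. No member passed the threshold in edgeR's quasi-likelihood test (adjusted p at or under 0.05), where 0.0% of the 17697 genes did, so the count says nothing particular to the members. At an unadjusted p under 0.05 there were 6 of 77 members (7.79%), against 19.8% of all genes, and the smallest adjusted p of a member was 0.221. DESeq2's Wald test called 1.67% of all genes and a fit of K and normal alone with the litter number as a block called 2.33% of 16746 genes, both with 0 members. The median log2 difference was 0.035 over members, 0.023 over the large and 0.070 over the small subunit, against 0.0046 over all genes. Of the members 46 of 77 were higher in K, 27 of 48 large and 19 of 29 small, where 50.6% of all genes were higher. These directions rested on K 3: without it 30 of 77 members were higher, 15 of 48 large and 15 of 29 small, and the medians were -0.025 over members, -0.037 over the large and 0.0041 over the small subunit. The data bound these differences fairly closely: the 95% interval lay within 0.5 on the log2 scale either way for 63 of 77 members, and within 1 for 76, the exception being Mrps6.

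The litters of K and normal did not overlap for 7 members. Every K litter was above every normal litter for 2 members, Mrpl14 and Mrps9 (2.6%, with 4.87% of all genes), and below for 5, Mrpl11, Mrpl22, Mrpl3, Mrpl48 and Mrpl49 (6.49%, with 5.26% of all genes). These shares are near the background. All 5 of the lower ones are large-subunit genes (10.4% of 48, with 5.26% of all genes), and none of the 29 small-subunit genes was lower in every litter. Large against small was not tested. Mrpl11, a homologue of the bacterial L11 protein at the base of the stalk, was at 26, 29.6, 26 and 26.5 CPM in normal 1 to 4, at 24.3, 21.1, 21.9 and 19.2 CPM in K and at 19.8, 22.7, 24.5 and 25.8 CPM in BHB. All 8 treated litters lay below the lowest normal litter. The share of all genes that separate all 8 treated litters from normal was not counted, here and for Mrpl14 and Mrpl3 below. Its log2 difference was -0.32 ± 0.11 in K (SE; adjusted p = 0.221) and -0.22 ± 0.11 in BHB (adjusted p = 0.428).

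Mrpl22, whose bacterial counterpart lines the tunnel through which the new protein leaves, was at 14.7, 17.8, 14.9 and 16.4 CPM in normal. It was at 13.1, 12.7, 12.4 and 12.1 CPM in K, all below normal and close together, and at 15.7, 11.6, 14.0 and 13.5 CPM in BHB, where BHB 1 reached into the normal range. The log2 difference was -0.34 ± 0.11 in K (adjusted p = 0.221) and -0.22 ± 0.11 in BHB (adjusted p = 0.440). Mrpl48 was at 28.2 ± 1.2 CPM in normal and 24.1 ± 1.7 CPM in K (SD, n = 4), a log2 difference of -0.23 ± 0.08 (adjusted p = 0.221). The Mrpl48 values share a caveat: a processed pseudogene, Mrpl48-ps, had 29 to 56 counts per library in an entry of its own, and how reads common to both were assigned was not given in the sources used here. Mrpl49, which has no bacterial counterpart, was at 32.2 ± 3.2 CPM in normal and 28.3 ± 0.64 CPM in K, with normal 3 at 29.2 CPM just above K 1 at 28.9 CPM.

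The members on the higher side were fewer. Mrpl14, a homologue of bacterial L14 on the face that meets the small subunit, was at 7.45, 7.55, 7.29 and 5.97 CPM in normal, at 10.4, 7.95, 9.66 and 8.04 CPM in K and at 8.10, 9.30, 8.95 and 9.28 CPM in BHB. Every treated litter lay above every normal litter. The log2 difference was 0.35 ± 0.14 in K (adjusted p = 0.225) and 0.33 ± 0.14 in BHB (adjusted p = 0.417), on 50 to 110 counts per library. Mrps9, a homologue of bacterial S9 whose bacterial counterpart touches the tRNA in the P site, was at 56.3, 57.6, 62.2 and 59.9 CPM in normal, at 68.5, 62.8, 65.6 and 68.7 CPM in K and at 52.9, 55.6, 57.4 and 63.7 CPM in BHB. Only the K litters were set apart, and the closest were K 2 and normal 3. The log2 difference was 0.17 ± 0.07 in K (adjusted p = 0.230) and -0.04 ± 0.07 in BHB (adjusted p = 0.794).

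**Figure D3:**
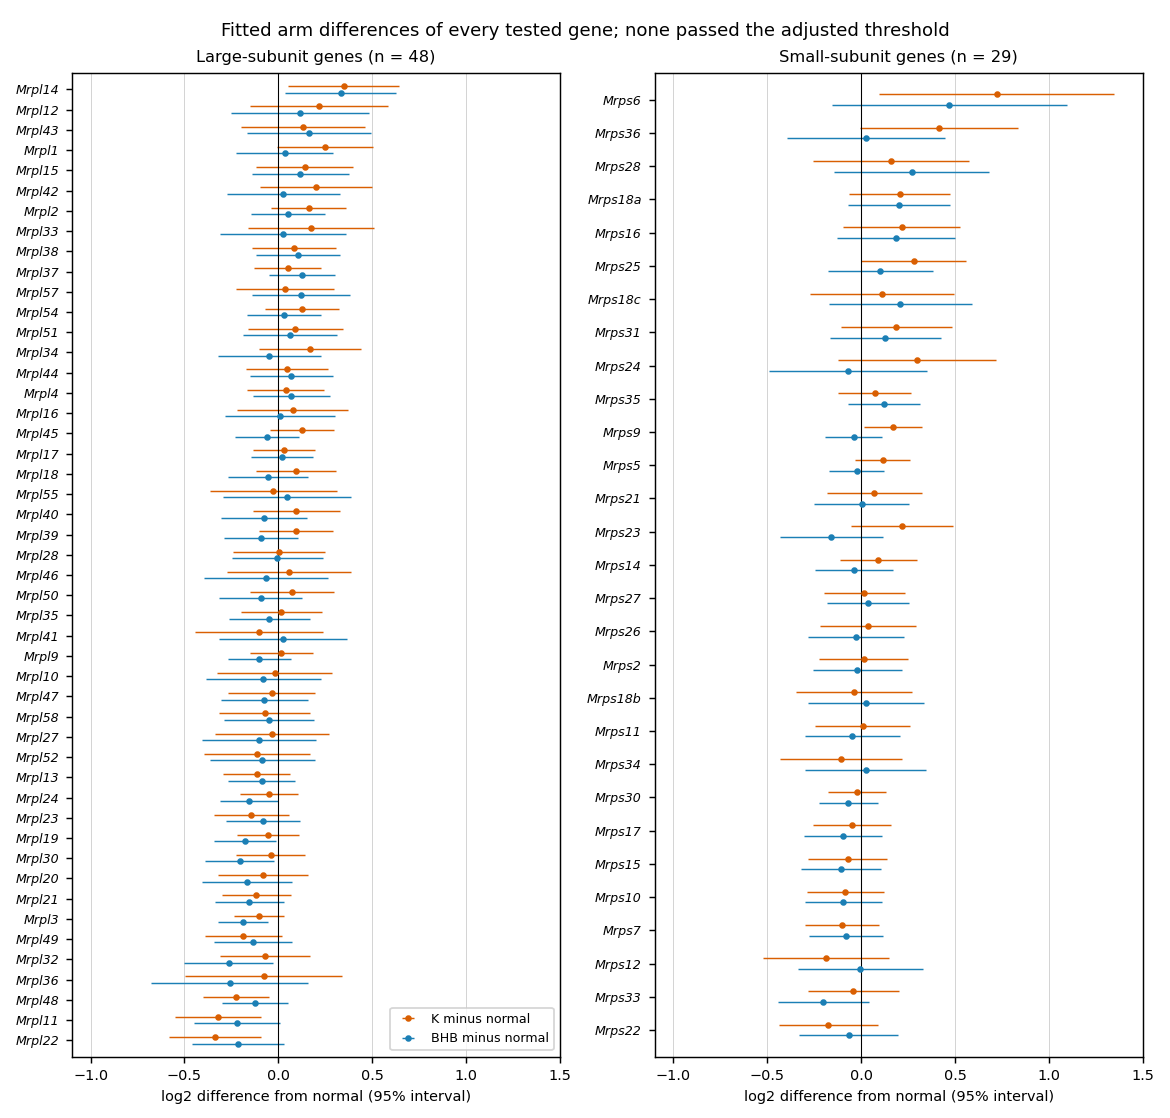
Fitted log2 difference from normal with its 95% interval for each of the 48 large-subunit and 29 small-subunit genes tested, K in orange and BHB in blue, ordered by the mean of both. None of the 77 genes passed the adjusted threshold, and the widest interval is that of Mrps6.

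In BHB with normal, again no member passed in edgeR (0.0% of all genes did), 6 members had an unadjusted p under 0.05 against 11.8% of all genes, and DESeq2 called 0 members and 0.412% of all genes. The comparison uses the same normal litters as that of K, so the values are set side by side and their likeness is not counted as support. The median log2 difference was -0.040 over members, -0.058 over the large and -0.020 over the small subunit, against 0.016 over all genes. Higher in BHB were 32 of 77 members, 19 of 48 large and 13 of 29 small, where 52.8% of all genes were higher. The 6 members with an unadjusted p under 0.05 are 12.5% of the 48 large-subunit genes, near the 11.8% of all genes, and large against small was not tested. Leaving out 1 library at a time, the members' median ran from -0.067 (without BHB 4) to -0.018 (without BHB 2).

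Every BHB litter was above every normal litter for Mrpl14, Mrps16 and Mrps18a (3.90% of members, with 3.95% of all genes) and below for Mrpl11, Mrpl19, Mrpl21, Mrpl3, Mrpl30 and Mrpl36 (7.79% of members, with 4.67% of all genes). All 6 on the lower side are large-subunit genes (12.5% of 48, with 4.67% of all genes), and none of 29 is a small-subunit gene. Mrpl11 and Mrpl3 were lower in K too, against the same normal litters. Large against small was not tested. Mrpl3, a homologue of the bacterial L3 protein that reaches toward the peptidyl transferase centre, was at 54.2, 55.3, 55.8 and 56.7 CPM in normal, at 51.4, 50.8, 51.4 and 52.8 CPM in K and at 46.0, 53.4, 47.6 and 47.8 CPM in BHB. All 8 treated litters lay below all normal litters and BHB 2 stood above the other BHB litters. The log2 difference was -0.10 ± 0.06 in K (adjusted p = 0.337) and -0.19 ± 0.06 in BHB (adjusted p = 0.417).

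Mrpl30 was at 29.5, 32.6, 29.4 and 32.8 CPM in normal and at 27.7, 28.5, 26.8 and 24.8 CPM in BHB, while K, at 29.0 to 33.8 CPM, covered the normal range. Its log2 difference in BHB was -0.21 ± 0.08 (adjusted p = 0.417). Mrpl19 was at 26.8 ± 1.0 CPM in normal and 23.7 ± 1.3 CPM in BHB, with BHB 4 at 25 CPM just below normal 3 at 25.2 CPM. Mrpl32, the member with the most negative difference in BHB, whose precursor is cut by the mitochondrial m-AAA protease during ribosome assembly, did not separate the arms. It was at 19.4, 19.8, 19.1 and 21.5 CPM in normal and at 14.7, 14.6, 17.6 and 19.6 CPM in BHB, with BHB 1 and BHB 2 lowest and BHB 4 inside the normal range, a log2 difference of -0.27 ± 0.11 (adjusted p = 0.417). Mrpl36 was at 8.20 ± 1.07 CPM in normal and 6.83 ± 0.59 CPM in BHB, and Mrpl21 at 25.5 ± 0.94 CPM and 22.9 ± 1.2 CPM. Mrps16 was at 11.4 ± 0.66 CPM and 12.9 ± 1.0 CPM.

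**Figure D4:**
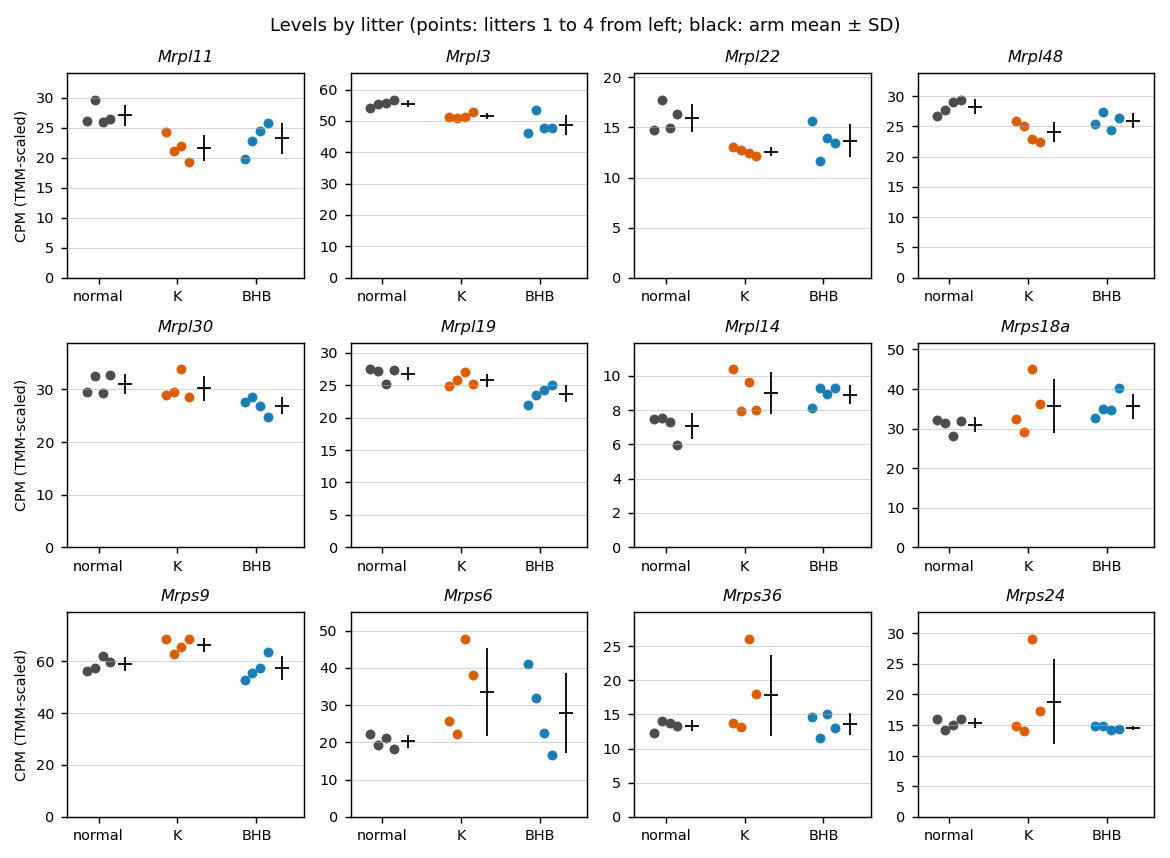
TMM-scaled CPM of 12 members in every litter (litters 1 to 4 from left in each arm, arm mean ± SD in black). Mrpl11 and Mrpl3 lie lower and Mrpl14 higher in all 8 treated litters than in any normal litter, and Mrps6 is high in K 3, K 4, BHB 1 and BHB 2, while Mrps36 and Mrps24 are highest in K 3. The share of all genes that separate all 8 treated litters from normal was not counted.

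K was also compared with BHB directly, which tests whether the arms' differences from normal differ. No member passed in edgeR (0.0% of all genes did), 3 had an unadjusted p under 0.05 against 8.23% of all genes, and DESeq2 called 0 members and 0.13% of all genes. The median log2 difference was 0.047 over members, and 52 of 77 were higher in K, where 52.4% of all genes were. Without K 3 the median was -0.016 and 36 of 77 were higher. Every K litter was above every BHB litter for Mrpl30, Mrpl45 and Mrps23 (3.90%, with 1.76% of all genes), and for no member was every K litter below (2.31% of all genes). Mrpl45, which lies at the tunnel exit and helps hold the ribosome to the inner membrane, was at 40.2, 39.3, 41.3 and 36.5 CPM in K and at 34.3, 35.9, 36.0 and 32.3 CPM in BHB, a log2 difference of 0.18 ± 0.08 (adjusted p = 0.586). Mrps23 was at 17.7 ± 2.1 CPM in K and 13.7 ± 1.7 CPM in BHB, a log2 difference of 0.38 ± 0.13 (adjusted p = 0.535). Normal, at 15.3 ± 1.3 CPM, lay between.

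Taking the 8 treated litters as 1 set against normal does not depend on which arm received which regimen. It called 0 members with edgeR (0.0% of all genes), 6 had an unadjusted p under 0.05 (18.8% of all genes did), and DESeq2 called 0 members and 1.28% of all genes. The median log2 difference was 0.0035 over members, -0.0027 over the large and 0.027 over the small subunit, and 40 of 77 members were higher, where 51.1% of all genes were. Leaving out 1 library at a time, the members' median ran from -0.030 (without K 3, 29 of 77 higher) to 0.031 (without K 2, 45 of 77 higher). For 72 of 77 members the 95% interval lay within 0.5 on the log2 scale either way.

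The 3 small-subunit symbols that scattered most were high in single treated litters. Mrps6, a homologue of bacterial S6, was at 22.3, 19.2, 21.2 and 18.3 CPM in normal, at 25.6, 22.1, 47.7 and 38.2 CPM in K and at 40.9, 31.8, 22.5 and 16.5 CPM in BHB. The 4 libraries above 30 CPM are the 4 that stood apart in markers of other cell types. The log2 difference was 0.72 ± 0.29 in K (adjusted p = 0.227) and 0.47 ± 0.29 in BHB (adjusted p = 0.477), and without those 4 libraries it was 0.24 in K and -0.04 in BHB. In GENCODE M21 19.9% of its exon bases are overlapped by other genes on the same strand, among them Slc5a3, the sodium and myo-inositol cotransporter. Slc5a3 was at 130 to 181 CPM in normal, at 225, 189, 516 and 389 CPM in K and at 403, 308, 166 and 111 CPM in BHB, so its level moved with that of Mrps6. The part of Slc5a3 reads and of other cell types in the Mrps6 values was not tested.

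Mrps36 was at 12.3, 14.0, 13.8 and 13.2 CPM in normal, at 13.8, 13.2, 26.1 and 18.1 CPM in K and at 14.7, 11.6, 15 and 13.0 CPM in BHB. K 3 and K 4 alone lay above the other libraries. The log2 difference in K was 0.41 ± 0.19 (adjusted p = 0.255) and was 0.03 without the 4 libraries. Mrps24, a homologue of bacterial S3, was at 16, 14.2, 15 and 16 CPM in normal, at 14.9, 14.1, 29.1 and 17.3 CPM in K and at 14.8, 14.9, 14.2 and 14.4 CPM in BHB, so that K 3 set its K mean. Of its exon bases 15.4% are overlapped on the same strand by Urgcp, which was at 20.9 to 25.2 CPM in normal, at 23.9, 22, 32.5 and 29.6 CPM in K and at 22 to 25.9 CPM in BHB, and the part of Urgcp reads in the Mrps24 values was not tested. Its log2 difference in K was 0.30 ± 0.19 (adjusted p = 0.383) and was -0.07 without the 4 libraries. Mrpl12 showed the same litters high: it was at 61.8 to 68.3 CPM in normal, at 62.0, 52.2, 103 and 86.0 CPM in K and at 63.9 to 74.9 CPM in BHB, with a log2 difference in K of 0.22 ± 0.17 (adjusted p = 0.470) that was -0.18 without the 4 libraries. Mrps25, at 39.3 ± 3.4, 47.8 ± 10.3 and 42.2 ± 1.5 CPM in normal, K and BHB, had log2 differences of 0.28 in K and 0.10 in BHB, and 0.01 in K without the 4 libraries. Mrps28, at 8.64 ± 1.02, 9.65 ± 2.80 and 10.4 ± 0.79 CPM, had 0.16 and 0.27, and -0.22 in K without them.

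Without the 4 libraries that stood apart, 2 litters of each treated arm remained, and the median log2 difference in K turned to -0.069 over members, -0.092 over the large and -0.021 over the small subunit. No member was called. The remaining treated litters still differed from normal in markers of other cell types. Median log2 differences were 1.57 in K and 0.71 in BHB for endothelial, 0.81 and 0.65 for podocyte, and 1.00 and 3.79 for leukocyte markers. They were -0.68 and 1.06 for proximal tubule, 0.45 and -0.08 for loop of Henle and distal tubule, and -0.08 and -0.42 for ureteric markers. With so few litters groups separate more often: every K litter was then below every normal litter for 16 members (20.8%, with 9.46% of all genes), 13 large and 3 small, and above for 5 (6.49%, with 11.1%). In BHB it was below for 9 members (11.7%, with 9.12%), all large, and above for 5 (6.49%, with 9.97%). Below normal were thus 27.1% of 48 large-subunit genes in K and 18.8% in BHB, and 10.3% and 0% of 29 small-subunit genes. Large against small was not tested. The large-minus-small difference of the 4 remaining treated litters lies below every normal litter, but this had to follow. All 8 treated values lay below normal before, so it is no further check.

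Members with a special place behaved as follows. The S18 family has 3 mammalian members, of which Mrps18b and Mrps18c belong to the small and Mrps18a to the large subunit. Mrps18a was at 31.0 ± 1.9 CPM in normal, 35.7 ± 6.9 CPM in K and 35.6 ± 3.2 CPM in BHB, with every BHB litter above every normal litter and a log2 difference of 0.20 ± 0.12 in BHB (adjusted p = 0.477). Mrps18b was at 11.8 ± 1.9, 11.5 ± 1.4 and 12.0 ± 1.1 CPM, and Mrps18c, the least abundant tested member in CPM, at 4.65 ± 0.52, 5.02 ± 0.92 and 5.38 ± 0.73 CPM. The same-strand overlap of Mrps18c is given above. The other large-subunit protein with an S symbol, Mrps30, was steady at 50.1 ± 2.7, 49.3 ± 3.8 and 47.7 ± 1.8 CPM. Mrpl58, a peptidyl-tRNA hydrolase that frees stalled ribosomes and is also built into the large subunit, was at 27.5 ± 1.1, 26.2 ± 3.1 and 26.6 ± 3.4 CPM. Mrps12, a homologue of bacterial S12 at the decoding centre, was at 13.9 ± 2.5, 12.2 ± 1.6 and 13.9 ± 1.7 CPM. For none of these did the log2 difference in either arm exceed 0.25 in size.

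Mrpl53 had 0 counts in all 12 libraries, which allows up to 0.244 to 0.398 CPM per library (3 counts, counting error only). In GENCODE M21 88.0% of its exon bases are overlapped on the same strand by another entry, Gm42688, which was at 2.22 ± 0.49 CPM in normal. The part of this overlap in the count of 0 was not tested. Overlaps of this kind touch 8 members, 5 of them over more than 10% of their exon bases, and overlaps with a gene on the opposite strand touch 28, 14 of them over more than 10%. The sources used here did not give the strand setting of the counting. Whether reads of a member were kept apart from those of its antisense partner is therefore unknown.

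Other genes of mitochondrial translation were read beside the members. No gene of these lists passed the edgeR threshold in either arm. Of the 5 proteins of the mitochondrial ribosome that the name rule misses, 2 were higher in K and 1 in BHB, with medians of -0.075 and -0.054 on the log2 scale. Gadd45gip1, of the large subunit, was lowest relative to normal with log2 differences of -0.18 ± 0.12 and -0.25 ± 0.12 (-0.10 and -0.11 without the 4 libraries), and the small-subunit proteins Dap3 (-0.08 and -0.05), Ptcd3 (-0.07 and -0.11), Chchd1 (0.01 and -0.05) and Aurkaip1 (0.13 and 0.03) lay near 0. Of 14 translation factors 9 were higher in K and 7 in BHB, and the smallest p in K was that of Mtrf1l, a release factor, which lay lower (-0.22 ± 0.10, adjusted p = 0.262). Gfm1, the elongation factor that moves the ribosome along the messenger, had the smallest p of those higher in K (0.28 ± 0.15, adjusted p = 0.300), and its log2 difference was -0.04 without the 4 libraries. Of 28 genes for ribosome assembly and ribosomal RNA modification 15 and 14 were higher, with medians of 0.013 and 0.010. Of 17 mitochondrial aminoacyl-tRNA synthetases 6 and 10 were higher.

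Of 13 genes for mitochondrial transcription, RNA processing and stability and the insertion of new proteins into the inner membrane, 4 were higher in each arm, with medians of -0.048 in K and -0.090 in BHB. Elac2, which trims the ends of mitochondrial tRNAs, had a log2 difference of -0.27 ± 0.08 in K (adjusted p = 0.221) and -0.21 ± 0.07 in BHB (adjusted p = 0.417), and without the 4 libraries -0.23 and -0.14. Of 11 nuclear regulators 4 were higher in K and 3 in BHB. Nrf1 stood at -0.20 ± 0.09 in K, or -0.04 without the 4 libraries, and -0.13 ± 0.09 in BHB, and Gabpa, the DNA-binding subunit of the ETS-family factor named above, at 0.04 ± 0.07 and -0.16 ± 0.07. The coactivator Ppargc1a was at 24.9, 12.3, 32.0 and 18.6 CPM in normal, at 43.2, 25.7, 194 and 145 CPM in K and at 87.0, 97.1, 22 and 17.0 CPM in BHB. It was high in the 4 libraries that stood apart in markers of other cell types. Its log2 difference of 2.21 ± 0.74 in K (adjusted p = 0.221) and 1.34 ± 0.73 in BHB (adjusted p = 0.449) became 0.65 and -0.17 without them, and -0.23 and -0.61 with the marker score as covariate.

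The mitochondrially encoded proteins, which this ribosome makes, stood at other values in K. All 13 of their transcripts were higher in K with a median log2 difference of 0.38, and 7 of 13 were higher in BHB with a median of 0.12. Without the 4 libraries the medians were 0.32 (13 of 13 higher) and -0.031 (6 of 13), and with the marker score as covariate 0.17 (11 of 13) and -0.17 (2 of 13). That score differs between the arms, as given above. Leaving out 1 library at a time kept all 13 higher in K, with medians from 0.29 to 0.56, whereas the BHB median ran from -0.097 (without normal 2) to 0.20 (without BHB 3). With the litter number as a block in a fit of K and normal, 5 of the 12 tested passed, where 2.33% of all genes did. In that fit markers of other cell types passed too, from 0 of 10 ureteric to 8 of 10 endothelial. It was added after the litters were compared, and the numbers are not shown to pair litters. With the block over all 12 libraries 0 of 13 passed, and 0 of the 17697 genes. Leaving out 1 library at a time, 1 of 13 passed in edgeR without normal 4 and 1 without BHB 1. No transcript passed in the other fits of this kind, and the share of all genes was not set beside these counts. Their counts made up 0.985% ± 0.24 of the normal libraries, 1.30% ± 0.14 of the K and 1.05% ± 0.13 of the BHB libraries. The smallest p was that of mt-Nd6, a complex I subunit, with 1.13 ± 0.15 in K (adjusted p = 0.103) and 0.43 ± 0.15 in BHB (adjusted p = 0.417), and without the 4 libraries 1.01 and 0.27. The difference between the lists was not tested.

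**Figure D5:**
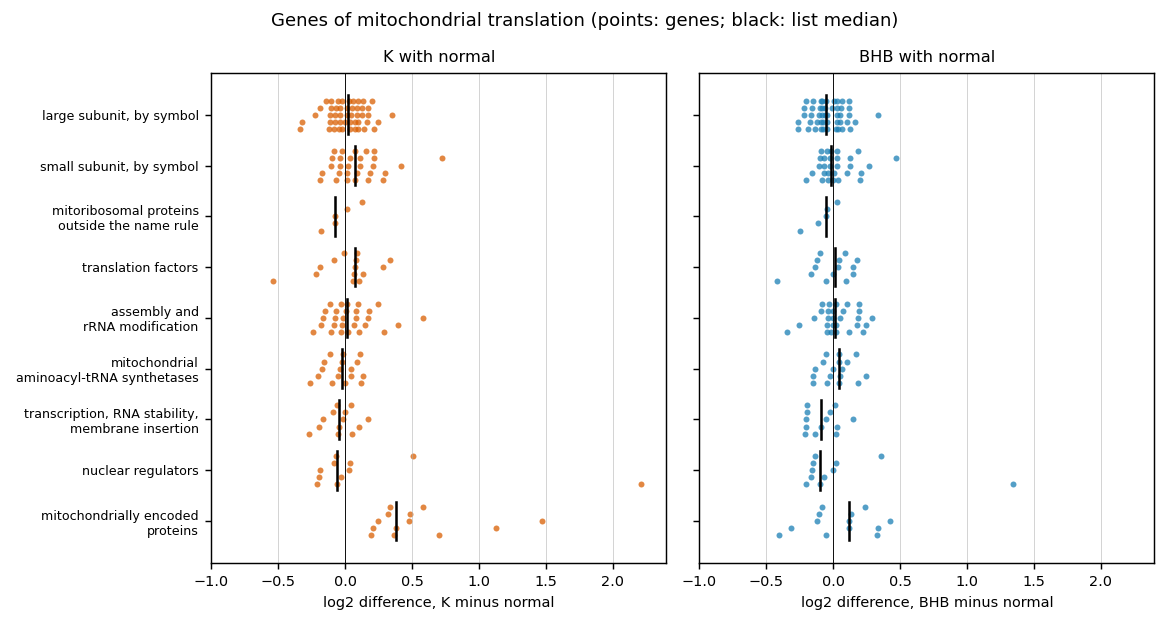
Fitted log2 difference from normal of each gene (points) by list, K on the left and BHB on the right, with list medians in black. The large and small subunit lie around 0 in both arms, the 13 mitochondrially encoded transcripts all lie above 0 in K (11 of 13 with the marker score as covariate), and the regulator furthest to the right in both panels is Ppargc1a, whose difference was 0.65 in K and -0.17 in BHB without the 4 libraries that stood apart.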

How the data were processed

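Counts and normalized values of 12 libraries, 3 arms of 4 litters, came from 1 table. The deposited counts are whole reads per Ensembl gene as the authors made them. HTSeq 2.01, TopHat2 2.1.1, DESeq2 1.36.0 and cutadapt 2.10 are named in the submitters' processing notes, which assign them no step. The signal columns that the authors deposited are those counts divided by 1 factor per library and entered no test. Build, annotation and strand setting of the counting were not given in the sources used here. Of 55414 entries 6250 were blank. Members and gene lists were chosen with earlier results of these data known. In R 4.3.3 with edgeR 4.0.16, filterByExpr left 17697 genes. TMM scaling and the robust quasi-likelihood test were fitted jointly to the 12 libraries, each arm having its own mean (9 residual degrees of freedom), and Benjamini-Hochberg adjustment ran over all genes tested, with 0.05 as threshold. Errors of log2 differences are standard errors and intervals are 95% intervals from the same fit. Log2 CPM means used a prior count of 2. Lengths, overlaps and neighbouring starts came from GENCODE M21, and 78 members matched it. All p-values set a difference between arms against the spread between litters, which is estimated with information shared across genes. Total counts of 7532784 to 12276119 per library set the precision, and the floor of 3 counts covers counting error only.

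Litter numbers are shared between arms. Between K and normal, deviations of same-numbered litters from their arm means correlated at 0.114, 0.461, 0.338 and 0.238 over genes, all above 0.1. A fit of K and normal with the number as a block was therefore added. Normal 2 correlated best with K 1 and normal 3 with K 4, so the numbers are not shown to pair litters. Between normal and BHB the correlations were -0.0096, -0.0084, -0.26 and 0.10, and between K and BHB -0.44, -0.22, -0.43 and -0.23, which does not pair them. Members named in the text were the 4 highest and lowest per length of each subunit, the 5 largest differences in each direction and arm, members whose litters did not overlap between arms, those with the largest scatter, and those of known special role. Alternatives were DESeq2 1.42.0 as scaling and as test, no filter, no robust step, only the arms compared, the block, the marker score as covariate, and leaving out single libraries or the 4 that stood apart.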

Additional observations from a re-analysis of the deposited data

Results flagged for a closer look

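In 114 groups of 4 litters examined, 6 had a litter whose distance from the nearest other litter was larger, as a share of the group's range, than Dixon's 95% critical value. Chance flags about 1 in 20 such groups. Mrpl11 was at 29.6 CPM in normal 2, above 26 to 26.5 CPM in the other normal litters. Mrpl14 was at 5.97 CPM in normal 4, below 7.29 to 7.55 CPM. Mrpl19 was at 25.2 CPM in normal 3, below 27.2 to 27.5 CPM. Mrpl36 was at 9.79 CPM in normal 4, above 7.45 to 7.85 CPM. Mrps16 was at 14.5 CPM in BHB 2, above 12.3 to 12.5 CPM. The members took 0.232% of the counts of BHB 4, above 0.211% to 0.215% in the other BHB litters.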

How the results depend on the processing

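No member was called under any of the 19 to 21 alternatives of each comparison, and the smallest adjusted p of a member over them was 0.0943 in K with normal, 0.246 in BHB with normal, 0.231 in K with BHB and 0.122 in both treated arms with normal. Over all genes edgeR called 0 and DESeq2 called 296, 73, 23 and 226 in the same order. With the replicate block in a fit of K and normal alone, 391 genes and 0 members were called, and the members' median was 0.030. Over all 12 libraries the block gave 0 members and a median of 0.027, and it changed no other call of a member. Shifts of the median log2 differences were set beside the pooled SD between litters of the mean log2 CPM. That SD was 0.0906 for members, 0.0865 for the large and 0.0983 for the small subunit. It is not the error of such a shift, since the fits share most libraries, and serves as a mark of size only. Medians moved by more than this SD in few cases, and the cause was not tested. Without K 3, K 4, BHB 1 and BHB 2 they were -0.0692 (members, K with normal), -0.0916 (large subunit, K with normal), -0.0546 (members, K with BHB), -0.0515 (large, K with BHB) and -0.058 (small, K with BHB). With the marker score as covariate they were -0.086 (large, K with normal), -0.0436 (small, K with normal) and -0.104 (large, both treated arms). Leaving out 1 library at a time, the large-subunit median in K with BHB ran from -0.0355 (without K 3) to 0.1004 (without K 2). The large-minus-small difference, whose alternatives of members and libraries were chosen after seeing the data, was -0.070 in K and -0.059 in BHB. It became -0.031 in K without Mrps6, Mrps24 and Mrps36, and -0.0433 in K and -0.0319 in BHB with the median of members. Between K and BHB it was -0.011, and it was 0.0172 without those 3 genes and 0.0092 without the 4 libraries. Of the 34 named members tested, 15 kept the sign of their log2 difference in K under every alternative, 17 in BHB and 11 in K with BHB. With 4 litters an arm, the 95% intervals of single members in K reached from 0.134 to 0.626 to either side on the log2 scale, with a median of 0.24.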

Other observations

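Of the 6 pseudogene entries that the name rule leaves out, Mrpl48-ps had 29 to 56 counts per library and 529 in all, while Mrps36-ps1 had 2 to 6, Mrps36-ps2 up to 5, Mrpl23-ps1 up to 4 and Mrpl27-ps up to 1 count. Mrps36-ps3 had 0 counts in all libraries.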
